A study of Mus musculus with 2 samples.

Results

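The chemokine axes of CXCR3 and CXCR6 are described here by 5 genes, out of 32285 in the count tables. These are the CXCR3 ligands Cxcl9 and Cxcl10, their receptor Cxcr3, the CXCR6 ligand Cxcl16 and its receptor Cxcr6. The genes were chosen by symbol, and their 200961 UMIs (tags that each mark 1 captured RNA molecule) lie among 179230824 UMIs in all. The ligands were read out by the class of cell that carried their RNA, the receptors by lymphocyte subset.

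Chemokines are small secreted proteins that direct the movement of leukocytes through receptors coupled to G proteins. CXCL9 and CXCL10 are made by many cell types in response to interferon gamma, and CXCL10 also in response to type I interferon, and both draw activated T cells and NK cells that carry CXCR3. CXCL16 differs in that it is made as a transmembrane protein from which ADAM10 and ADAM17 release a soluble form, and CXCR6 marks effector and tissue-resident T cells, including those that stay in tumors.

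The cells came from MC38 tumors, a murine colon cancer line implanted under the skin of young adult female mice on the C57BL/6 background. One library was made from live cells sorted from tumors of wild-type (Lmo7+/+) hosts and 1 from tumors of hosts with a global knockout of Lmo7 (Lmo7-/-), while the implanted MC38 cells were not deleted for Lmo7. The number of mice behind each library was not given in the sources used here, cells were barcoded on the 10x Genomics platform, both libraries were pooled before sequencing, and no other treatment was given. With 1 library per genotype the genotypes could not be tested against each other, and genotype, tumor and library preparation cannot be told apart.

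The deposited tables held 16208 droplets called as cells with 98582479 UMIs for Lmo7+/+ and 15163 with 80648345 UMIs for Lmo7-/-, and 279 barcodes occurred in both. After filtering, 13542 and 11860 cells remained, with medians of 4535.5 and 4304.5 UMIs. Lmo7 itself had 37 and 31 counts in the host cells with a class name, which was 1.34 and 1.15 counts per 1000000 counts of the class (CPM), with a log2 ratio of -0.22 (95% interval -0.96 to 0.51). By counting error this interval leaves out a full loss of Lmo7 RNA from the host cells, while a smaller loss lies within it. Of the 31 counts, macrophage-like cells held 14 and endothelial-like cells 12. The endothelial-like level, 29.04 CPM, was above that of tumor cell-like cells in the same library. The part of free RNA from tumor cells in the 31 counts was not tested. The genotype rests on the label, and the second library is called the library labelled Lmo7-/-.

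Clusters were named from markers, without the 5 genes among those used for clustering. The 8151 macrophage-like cells carried C1qc (a complement component) at 5546 CPM against 220 in all other cells, and the 171 endothelial-like cells carried Plvap, a protein of endothelial diaphragms, at 2262 against 2.93. All markers fixed for the 223 fibroblast-like, 939 M-MDSC-like (monocytic cells with Plac8 and Ly6c2), 540 dendritic-like and 1303 lymphocyte (T-like) cells reached 5 CPM. Of the 18 tumor markers 8 did so in the 10969 tumor cell-like cells. A level is given as CPM of the summed counts of a class, and a log2 ratio as that of the library labelled Lmo7-/- over the Lmo7+/+ library. Intervals in parentheses are exact 95% intervals and cover counting error only and leave out differences between mice. Counts were not divided by gene length, since 1 UMI stands for 1 molecule.

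The genes of both interferon-induced ligands are neighbors on the minus strand of chromosome 5 (GENCODE M21, GRCm38). Cxcl9 (ENSMUSG00000029417) lies at chr5:92321347-92328079 and Cxcl10 (ENSMUSG00000034855) at chr5:92346638-92348889, with 18558 bases between them. Cxcl16 (ENSMUSG00000018920) is at chr11:70453983-70459984 on the minus strand, Cxcr3 (ENSMUSG00000050232) at chrX:101731535-101734269 on the minus strand and Cxcr6 (ENSMUSG00000048521) at chr9:123806475-123811760 on the plus strand. All 5 are annotated as protein coding.

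The sequences upstream of Cxcl9 and Cxcl10 are shown because the levels of this pair came apart in macrophage-like cells. They are the 250 bases before the start of each gene from RefSeq (GRCm38.p6), at chr5:92328080-92328329 and chr5:92348890-92349139, both read 5′ to 3′ on the minus strand, with matches to 3 motifs in capitals.
Cxcl9: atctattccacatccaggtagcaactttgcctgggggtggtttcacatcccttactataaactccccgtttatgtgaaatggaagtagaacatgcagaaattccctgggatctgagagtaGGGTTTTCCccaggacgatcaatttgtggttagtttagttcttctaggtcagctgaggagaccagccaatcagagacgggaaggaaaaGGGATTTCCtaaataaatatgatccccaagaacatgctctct
Cxcl10: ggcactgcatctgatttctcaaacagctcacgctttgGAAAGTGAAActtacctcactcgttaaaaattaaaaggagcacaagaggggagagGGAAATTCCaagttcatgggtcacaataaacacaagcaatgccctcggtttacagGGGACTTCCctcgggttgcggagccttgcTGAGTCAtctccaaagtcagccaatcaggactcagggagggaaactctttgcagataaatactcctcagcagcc
The motifs, searched on both strands, were GGNNNTTCC for NF-kB, GAAANNGAAA for the interferon-stimulated response element (ISRE), TGAGTCA for AP-1 and TTCNNNGAA for the interferon gamma-activated site (GAS). Cxcl9 had an NF-kB match from 130 to 122 bases and another from 42 to 34 bases before its start, and no match to the other motifs in this window. Cxcl10 had an ISRE match from 213 to 204 bases before its start, NF-kB matches from 158 to 150 (on both strands) and from 103 to 95, and an AP-1 match from 74 to 68. Among 32851 promoter windows, 15.7% held the NF-kB motif, 2.98% the ISRE motif, 4.46% the AP-1 motif and 7.02% the GAS motif, and 0.417% held ISRE and NF-kB together. These are matches of letters and were not tied to binding of any factor. Elements that differ from these letters were not searched for, so a window without a match can still hold one.

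Cxcl9 was carried at the highest level by endothelial-like cells, followed by fibroblast-like and macrophage-like cells, and its level was higher in the library labelled Lmo7-/- in every named class with counts in both libraries. In endothelial-like cells 1050 counts in the Lmo7+/+ library gave 2134 CPM (2007 to 2268) and 1599 counts in the other gave 3869 CPM (3682 to 4063), a log2 ratio of 0.86 (0.74 to 0.97). In fibroblast-like cells the level was 1257 CPM (1172 to 1346) and then 2489 CPM (2359 to 2624), for a log2 ratio of 0.99 (0.86 to 1.11). The order of levels, endothelial-like over fibroblast-like over macrophage-like cells, was the same in both libraries. No 2 neighbors in it had overlapping intervals, but these leave out the spread between cells. At equal depth per cell, the variance of Cxcl9 UMIs was 11.2 and 5.05 times the mean in endothelial-like cells. In fibroblast-like cells it was 4.82 and 12.7 times the mean. The share of cells with a Cxcl9 UMI at that depth kept the order only in the Lmo7+/+ library, where the intervals overlapped. In endothelial-like cells it was 43.0% (32.4 to 54.2) and 66.7% (53.7 to 78.0). It was 41.8% (31.9 to 52.2) and 49.4% (38.1 to 60.7) in fibroblast-like cells. In macrophage-like cells it was 38.0% (36.4 to 39.6) and 61.3% (59.8 to 62.8).

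Macrophage-like cells, the largest host class, had 16072 Cxcl9 counts at 746.6 CPM (735.1 to 758.2) in the Lmo7+/+ library. They had 33247 counts at 1526 CPM (1510 to 1543) in the library labelled Lmo7-/-, which is 2.04-fold higher (log2 ratio 1.03, 1.00 to 1.06). Of 12271 genes with at least 20 counts in these cells, 3.55% were 1.5-fold or more higher in that library, and the median log2 ratio of all genes was -0.10. Thinned to 1500 UMIs per cell, 38.0% (36.4 to 39.6) of 3556 cells had a Cxcl9 UMI in the Lmo7+/+ library and 61.3% (59.8 to 62.8) of 3996 in the other. Before thinning the shares were 56.5% and 76.1%, at median depths of 5233 and 4461 UMIs. Both the share of positive cells and the number of UMIs in a cell were therefore higher, as 7.0% and 16.7% of the thinned cells held 5 or more Cxcl9 UMIs. Markers of endothelial cells, the class with the most Cxcl9, summed to 45.7 and 86.7 CPM in the macrophage-like cells, with 3 and 2 of 10 at 5 CPM or more, and those of fibroblasts to 143 and 155 CPM, with 5 of 10 in each library. Their part in the Cxcl9 level was not tested.

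M-MDSC-like cells had a Cxcl9 level of 484 and 861 CPM (log2 ratio 0.83, 0.69 to 0.97) and dendritic-like cells one of 288 and 650 CPM (log2 ratio 1.17, 0.99 to 1.36). Among the genes tested in each of these classes, 6.09% in M-MDSC-like and 6.19% in dendritic-like cells were 1.5-fold or more higher in the library labelled Lmo7-/-, against 10.7% in endothelial-like and 10.4% in fibroblast-like cells. Tumor cell-like cells carried the lowest Cxcl9 level of these classes, 68.0 CPM (65.9 to 70.1) and 205 CPM (201 to 209), and had the highest log2 ratio, 1.59 (1.54 to 1.64), where 3.87% of 14197 genes were 1.5-fold or more higher. Macrophage markers in the tumor cell-like cells were near level between the libraries, with 6 of 12 at 5 CPM or more in each and a summed level of 170 and 165 CPM.

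T-like cells were taken to lack these ligands and were used to read the level of RNA from other cells. Whether lymphocytes carried Cxcl10 of their own was not tested. The class held sub-clusters with RNA of tumor or dendritic cells (sub-clusters 6, 8 and 9), so values are given with and without them. Sub-cluster 9 was close to the cut of 0.1 for this. Its 50 genes that set tumor cells apart averaged 0.104 of their tumor cell level, against 0.516 in sub-cluster 6. In the whole class Cxcl9 was 19.7 CPM from 34 counts and 50.7 CPM from 109 counts (log2 ratio 1.37, 0.80 to 1.97), and 2.36% (1.14 to 4.30) and 5.42% (3.66 to 7.69) of the thinned cells had a UMI, at median depths of 2155 and 2202 UMIs. Without those sub-clusters Cxcl9 stood at 11.97 CPM (6.97 to 19.2) from 17 counts and 21.3 CPM (15.2 to 29.0) from 40 counts. The interval of their log2 ratio of 0.83 spans 0 (-0.02 to 1.74), and the thinned shares were 1.86% (0.752 to 3.798) and 3.30% (1.90 to 5.30). The share of tumor cell-like cells with a Cxcl9 UMI after thinning was 8.11% (7.40 to 8.85) and 15.4% (14.3 to 16.5), above the T-like share in each library, with or without the sub-clusters. In the whole T-like class 10 of 12 macrophage markers reached 5 CPM in each library, with summed levels of 453 and 426 CPM. That class held 0.791 (0.489 to 1.27) and 2.02 (1.44 to 2.85) Cxcl9 counts for each Cxcl16 count, near the 1.03 and 1.91 of macrophage-like cells, while tumor cell-like cells held 5.38 and 21.2. The ratios with Cxcl10 were not near those of macrophage-like cells. T-like cells held 3.70 and 2.41 Cxcl10 counts for each Cxcl16 count, against 0.755 and 0.814. They held 0.214 and 0.838 Cxcl9 counts for each Cxcl10 count, against 1.36 and 2.34 in macrophage-like and 0.270 and 0.345 in tumor cell-like cells. The part of free RNA in the tumor cell-like level was not tested.

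**Figure D1:**
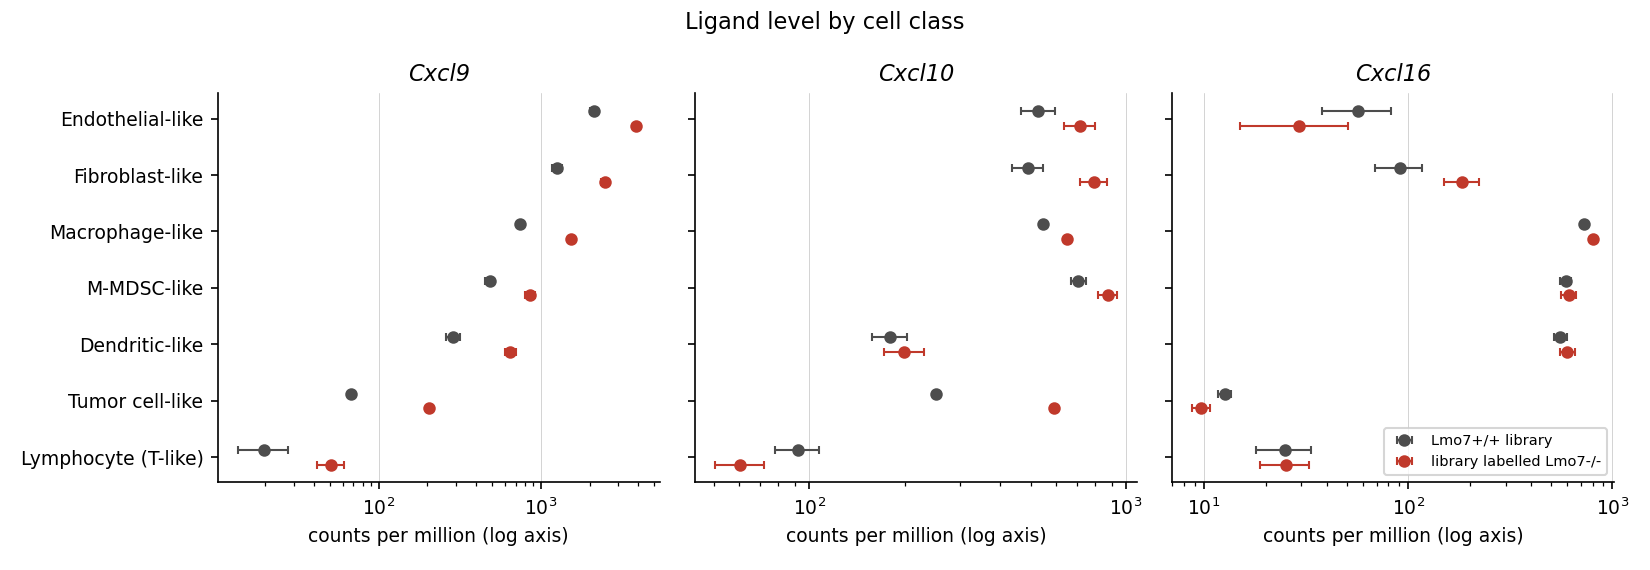
Level of Cxcl9, Cxcl10 and Cxcl16 (CPM of summed counts, log scale) in each cell class of the Lmo7+/+ library and the library labelled Lmo7-/-, with exact Poisson 95% intervals as bars. Cxcl9 is higher in the library labelled Lmo7-/- in each of the 7 classes, from 746.6 to 1526 CPM in macrophage-like cells, while Cxcl16 lies close between the libraries in the myeloid classes.

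Cxcl10 had another order of classes and a smaller difference between the libraries in host cells. In macrophage-like cells 11807 counts gave 548 CPM (539 to 558) and 14183 gave 651 CPM (640 to 662), and the log2 ratio of 0.25 (0.21 to 0.28) stayed under 1.5-fold. The share of thinned macrophage-like cells with a Cxcl10 UMI was 30.2% (28.7 to 31.7) and 32.8% (31.3 to 34.2). The pair of CXCR3 ligands thus differed in macrophage-like cells: there were 1.36 Cxcl9 counts for each Cxcl10 count in the Lmo7+/+ library and 2.34 in the library labelled Lmo7-/-.

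Cxcl10 in M-MDSC-like cells was 707 CPM (668 to 748) and 874 CPM (816 to 934), the highest of the classes in the Lmo7+/+ library, with a log2 ratio of 0.31 (0.18 to 0.43). The endothelial-like level was 526 CPM (464 to 595) against 714 CPM (635 to 800), for a log2 ratio of 0.44 (0.19 to 0.69). In the Lmo7+/+ library the intervals of endothelial-like, macrophage-like and fibroblast-like cells (489 CPM, 437 to 546) overlapped one another, so that their order is open there. Fibroblast-like cells reached 790 CPM (717 to 868) in the other library, where their interval overlapped that of M-MDSC-like cells, with a log2 ratio of 0.69 (0.48 to 0.90), and dendritic-like cells had 179 and 200 CPM with an interval of the log2 ratio that spans 0 (0.15, -0.13 to 0.43).

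Tumor cell-like cells stood apart from the host classes in Cxcl10. Their level was 252 CPM (248 to 256) from 14940 counts in the Lmo7+/+ library against 593 CPM (586 to 600) from 25675 counts in the library labelled Lmo7-/-, a log2 ratio of 1.24 (1.21 to 1.27). After thinning 21.4% (20.3 to 22.5) of 5601 cells and 30.8% (29.4 to 32.2) of 4227 cells had a Cxcl10 UMI. In the whole T-like class Cxcl10 was 92.0 and 60.5 CPM (log2 ratio -0.61, -0.95 to -0.26), where sub-cluster 9 gave 51 of the 159 Lmo7+/+ counts from 11 cells. Its Lmo7+/+ level of 2279 CPM (1697 to 2996) was above the 252 CPM of tumor cell-like cells, and the source of this RNA was not tested. Without sub-cluster 9 the log2 ratio was -0.06 (-0.44 to 0.32), and without all 3 sub-clusters the levels were 42.3 CPM (32.2 to 54.4) and 34.6 CPM (26.7 to 44.1), with thinned shares of 5.32% (3.28 to 8.10) and 2.47% (1.28 to 4.28). The NK-like cells of this class went the other way, with 35.6 CPM from 6 counts and 194 CPM from 22 counts (log2 ratio 2.44, 1.10 to 4.04). They gave 22 of the 65 counts left in the library labelled Lmo7-/-.

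Cxcl16 was a gene of the myeloid classes and differed little between the libraries there. The macrophage-like level was 726 CPM (715 to 738) from 15636 counts and 800.0 CPM (788 to 812) from 17427, with a log2 ratio of 0.14 (0.11 to 0.17). A Cxcl16 UMI was found in 63.4% and 66.7% of the thinned macrophage-like cells. M-MDSC-like cells had 592 and 611 CPM and dendritic-like cells 557 and 603 CPM, whose intervals overlapped in each library. Within the dendritic-like cells, the cluster led by Ccl22, Ccr7 and Il4i1, genes of mature dendritic cells, had 850 and 911 CPM.

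Outside the myeloid classes Cxcl16 was low. Fibroblast-like cells had 90.8 CPM (69.1 to 117.1) from 59 counts and 183 CPM (149 to 222) from 101 counts, with a log2 ratio of 1.01 (0.53 to 1.5). Endothelial-like cells had 56.9 CPM from 28 counts and 29.0 CPM from 12 counts (log2 ratio -0.97, -2.08 to 0.05), where 12.4% of 6267 genes were 1.5-fold or more lower. Tumor cell-like cells, at 12.7 and 9.68 CPM, were not above the T-like level of 24.9 and 25.1 CPM, or of 12.7 CPM (7.51 to 20.04) and 12.3 CPM (7.77 to 18.4) without sub-clusters 6, 8 and 9. After thinning 2.59% and 1.66% of them had a Cxcl16 UMI, against 2.36% and 2.06% of the whole T-like class. Before thinning the shares were 10.4% and 7.43% against 4.70% and 4.40%, and the tumor cell-like cells were deeper (medians of 6584.5 and 6135 UMIs). The part of free RNA in their Cxcl16 level was not tested.

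**Figure D2:**
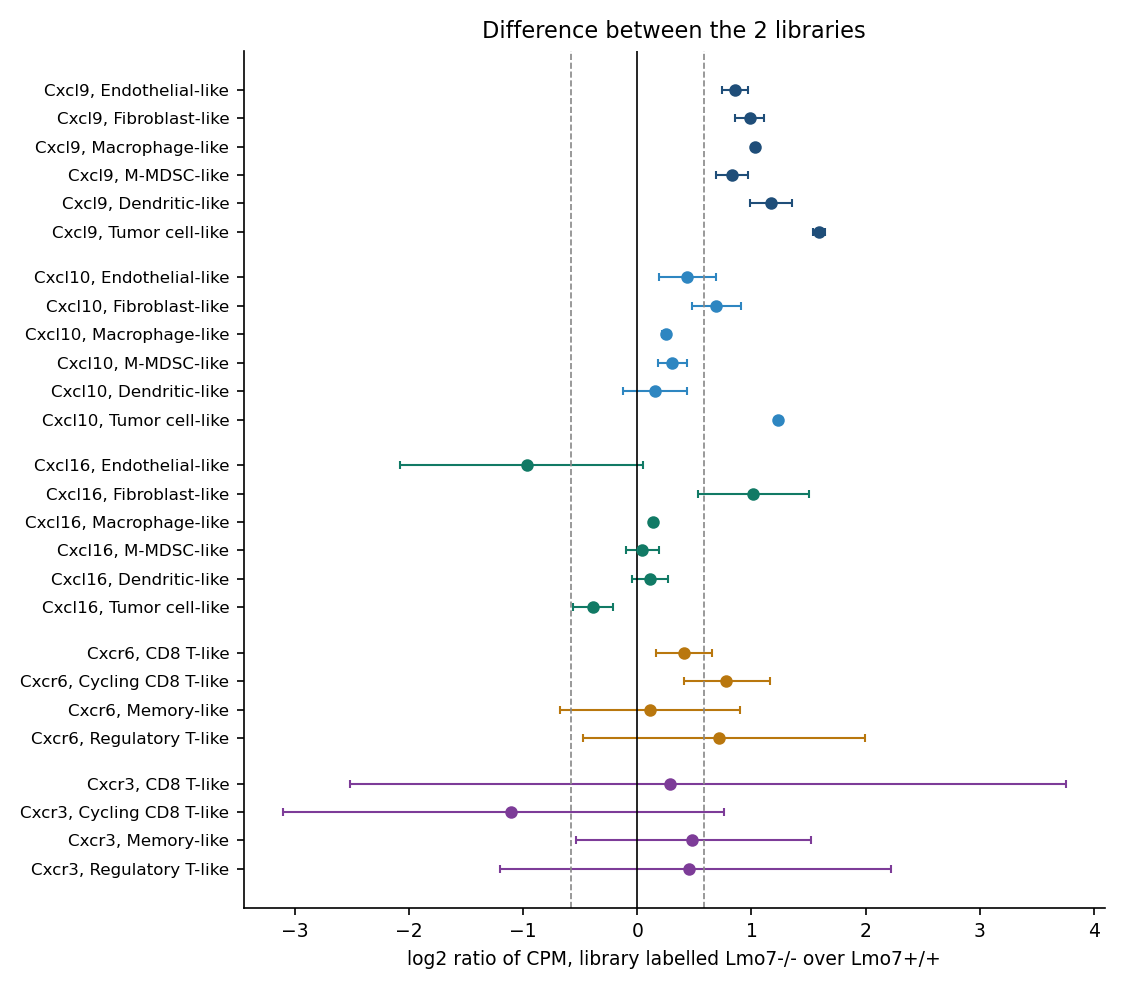
Log2 ratio of each of the 5 genes between the library labelled Lmo7-/- and the Lmo7+/+ library by cell class (ligands) and lymphocyte subset (receptors), with exact 95% intervals of the split of the counts and dashed lines at 1.5-fold. Cxcl9 lies above the upper line in all classes shown, Cxcl10 clearly so in tumor cell-like cells at 1.24, and Cxcr6 lies above 0 in CD8 T-like cells outside the cycle (0.41) and in cycling ones (0.78), while all intervals of Cxcr3 span 0.

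A class with a low level can still hold much of a ligand's RNA if it has many cells. Macrophage-like cells held 64.1% of all Cxcl9 counts of the Lmo7+/+ library and 66.2% in the other, and tumor cell-like cells 16.1% and 17.7%. Endothelial-like cells, at 0.716% and 0.624% of the cells, held 4.19% and 3.18% of the Cxcl9 counts. For Cxcl10 the tumor cell-like cells were the larger source, with 47.9% and 56.9% against 37.8% and 31.4% in macrophage-like cells. Cxcl16 came mainly from macrophage-like cells (79.1% and 84.7%). These shares move with the make-up of the sorted cells, since the class sizes differed between the libraries.

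The tumor cell-like class was made of 4 clusters that carried the CXCR3 ligands unequally. Cluster 4, led by Enpp2, Tubb2b and Igfbp5, had the highest levels, with Cxcl9 at 149 and 472 CPM (log2 ratio 1.67) and Cxcl10 at 369 and 1135 CPM (log2 ratio 1.62). Its 10 leading genes also held the collagen genes Col5a3, Col6a2 and Col3a1 and Pdgfrb, which fibroblasts carry too, and its name rests on a profile over chromosomes at 0.922 of that of cluster 1. Relative to their highest level in any small cluster, its tumor markers averaged 0.142 and its fibroblast markers 0.138. It made up 15.9% of the class in the Lmo7+/+ library and 24.2% in the other. Cluster 1, led by Cdsn, Car9 and Ndufa4l2, of which Car9 and Ndufa4l2 are hypoxia-induced, had Cxcl10 at 218 and 334 CPM (log2 ratio 0.61) and Cxcl9 at 58.4 and 91.4 CPM (log2 ratio 0.65). Cluster 2, led by the cell cycle genes Mxd3, Anln and Ccnb1, had Cxcl10 at 267 and 480 CPM (0.85) and Cxcl9 at 49.2 and 118 CPM (1.26). Cluster 5 had the lowest Cxcl10 level, 94.8 and 181 CPM (0.93). Both ligands were higher in the library labelled Lmo7-/- in each of the 4 clusters, and with equal weight to each cluster the log2 ratio was 1.13 for Cxcl9 and 1.00 for Cxcl10.

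Macrophage-like and M-MDSC-like cells were clustered again into 8 states, named by their leading genes. The Cxcl9 level was higher in the library labelled Lmo7-/- in all 8, with log2 ratios from 0.58 to 1.47. State 0, led by H2-M2, Vcam1 and Mmp2, held the most cells (35.1% and 37.9%) and had Cxcl9 at 899 and 1959 CPM (log2 ratio 1.12). State 4, with the stress and lysosomal genes Hspb1, Hspa1b and Gpnmb in the lead, had the lowest Cxcl9 level, 174 and 482 CPM (1.47). Monocyte-like state 1, led by Chil3, Ly6c2 and Plac8, had 472 and 1167 CPM (1.31).

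State 6, led by the interferon-stimulated genes Ifit3b, Cmpk2 and Ifit3, differed from the others in Cxcl10. It had the highest Cxcl10 level, 1532 CPM in the Lmo7+/+ library and 1227 CPM in the library labelled Lmo7-/-, a log2 ratio of -0.32 (-0.44 to -0.20). The other 7 states had log2 ratios of Cxcl10 above 0, from 0.12 in the cycling state 2 (Ccna2, Nusap1, Hmmr) to 1.13 in state 4. Cxcl9 in state 6 was 1156 and 1729 CPM, with the lowest log2 ratio of the 8 states (0.58, 0.47 to 0.70). State 6 made up 4.96% and 3.06% of these cells. With equal weight to each state the log2 ratio of Cxcl10 was 0.49, against 0.25 over the macrophage-like cells as a whole.

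Cxcl16 was nearly even over the states. It lay between 630 and 752 CPM in the Lmo7+/+ library and between 603 and 862 CPM in the other, except in state 7. State 7, led by Retnla, Cd209f and Lyve1, genes of resident macrophages, had 497 and 298 CPM (log2 ratio -0.74, -1.08 to -0.40), the lowest Cxcl16 level in each library.

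**Figure D3:**
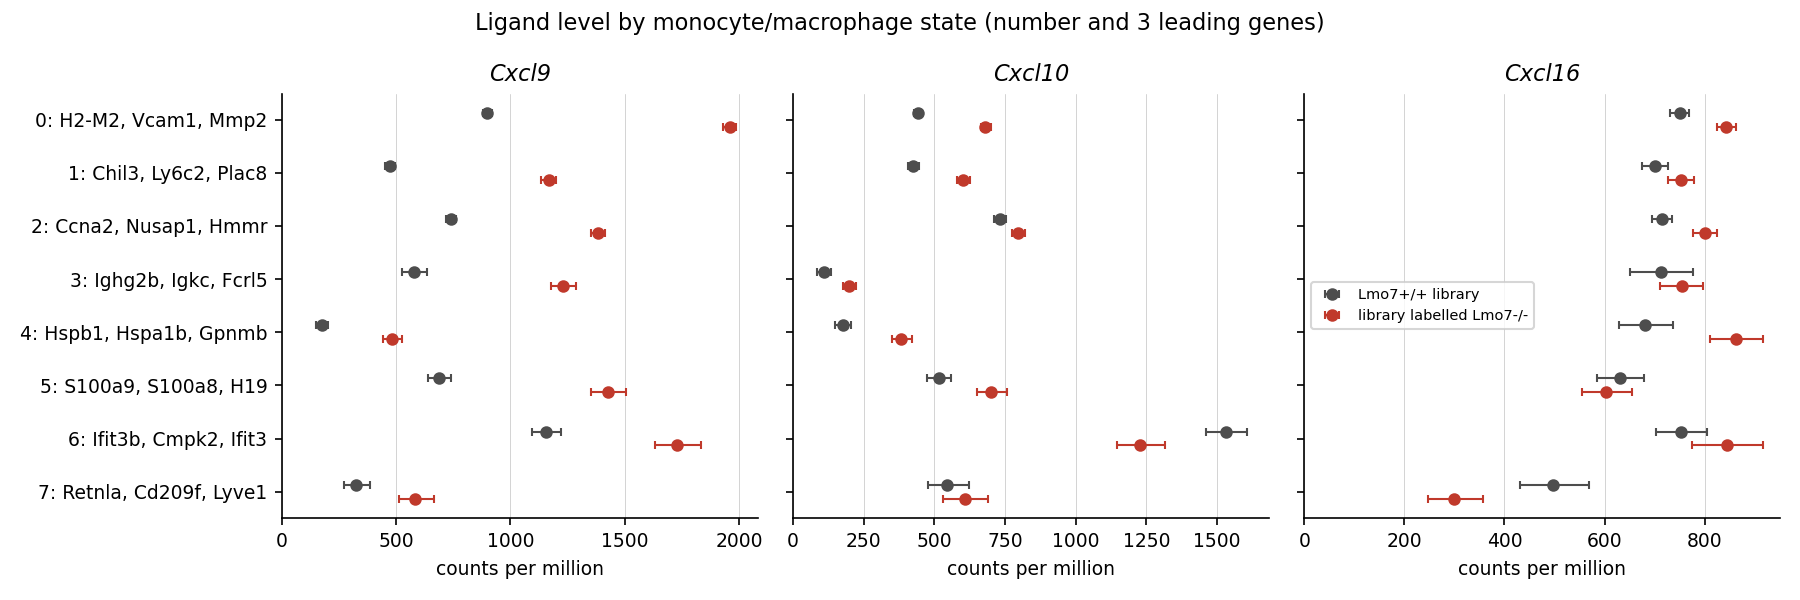
Level of Cxcl9, Cxcl10 and Cxcl16 (CPM, linear scale) in 8 states of macrophage-like and M-MDSC-like cells, each named by number and 3 leading genes, with exact Poisson 95% intervals. Cxcl9 is higher in the library labelled Lmo7-/- in all 8 states, Cxcl10 is lower there only in state 6 (1532 and 1227 CPM), and Cxcl16 is lower in state 7 (497 and 298 CPM).

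From cell to cell the CXCR3 ligands were uneven and Cxcl16 was even. At 1500 UMIs per macrophage-like cell the variance of Cxcl9 UMIs was 4.04 and 3.74 times the mean, that of Cxcl10 4.12 and 4.20 times, and that of Cxcl16 1.18 and 1.22 times, where 1 is expected of counting alone. The tenth of cells with the most Cxcl10 UMIs held 66.1% and 62.1% of them, against 32.1% and 30.5% for Cxcl16. Cxcl9 and Cxcl10 UMIs occurred together in 14.1% and 23.5% of these cells, where the product of the separate shares was 11.5% and 20.1%. In endothelial-like cells the figures were 26.7% against 14.5% and 34.9% against 27.5%. Cxcl10 and Cxcl16 occurred together as often as the product in the Lmo7+/+ library (19.1% and 19.1%).

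Cxcr6 was an abundant chemokine receptor RNA of the CD8 T-like cells. Lymphocytes were clustered again without the 5 genes, and the CD8 T-like cells with their cycling part (244 and 397 cells) were 42.4% (38.4 to 46.6) and 54.5% (50.8 to 58.2) of the lymphocytes. In these cells Cxcr6 had 283 counts at 348 CPM (308 to 391) in the Lmo7+/+ library and 654 counts at 507 CPM (469 to 547) in the library labelled Lmo7-/-. The log2 ratio of 0.54 (0.34 to 0.75) stayed under 1.5-fold, beside 5.75% of 7943 genes that were 1.5-fold or more higher in these cells. The share of thinned cells with a Cxcr6 UMI was 39.5% (32.9 to 46.5) of 210 and 46.6% (41.1 to 52.2) of 326, whose intervals overlapped.

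Macrophage-like and tumor cell-like cells, which should lack Cxcr6, had at most 0.490 CPM of it. The CD8 T-like cells outside the cycle had 544 CPM (471 to 625) and 722 CPM (655 to 793), and the cycling ones 186 CPM (148 to 231) and 318 CPM (278 to 364). Cxcr6 was thus lower in the cycling cells of each library, and the log2 ratios between the libraries were 0.41 (0.16 to 0.66) and 0.78 (0.41 to 1.16). A small CD8 sub-cluster led by the granzymes Gzmg, Gzme and Gzmd, with 4 Lmo7+/+ cells and 38 cells labelled Lmo7-/-, had 271 and 807 CPM, and without it the log2 ratio of the CD8 T-like cells was 0.42.

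Memory-like, regulatory T-like and NK-like cells had less Cxcr6 RNA than the CD8 T-like cells outside the cycle. Memory-like cells had 30 and 29 counts at 235 CPM (159 to 336) and 254 CPM (170 to 365). Their highest markers were Klf2, at 281 against 145 CPM in all other cells, and S1pr1, at 277 against 11.3 CPM. Their leading genes were Ifit3, Ifit1bl1 and S1pr1, so that interferon-stimulated genes stood among them. Relative to their highest level in any sub-cluster, the memory markers averaged 0.652 and the CD8 markers 0.528. Regulatory T-like cells, with Foxp3 and Il2ra, had 10 and 18 counts at 59.7 CPM (28.6 to 110) and 98.1 CPM (58.1 to 155). The log2 ratios of 0.11 (-0.68 to 0.90) and 0.72 (-0.48 to 1.99) both had intervals that span 0. In the cells with Cd4 and Cd8a UMIs that took no name, Cxcr6 was 344 and 428 CPM (49 and 75 counts). By UMIs of the cell, T-like cells with Cd4 and without Cd8a, Cd8b1 or Foxp3 had 502 CPM (377 to 655) and 485 CPM (382 to 607). In the Lmo7+/+ library this overlapped the level of CD8 T-like cells outside the cycle. By the same gating, T-like cells with Cd8a or Cd8b1 and without Cd4 or Foxp3 had less, 307 and 444 CPM. The first value lay below the interval of the cells with Cd4 and the second within it. Sub-cluster 9, led by Cd163l1, Il17a and Blk, had the highest level, 1340 CPM (904 to 1914) from 30 counts in 11 Lmo7+/+ cells, with 0 counts in 2 cells of the other library.

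NK-like cells of the Lmo7+/+ library had 0 Cxcr6 counts and those of the other had 8, at 70.4 CPM, which is at least 3.95-fold higher against a floor of 3 counts per library. The 8 counts are under the minimum of 20 for a call, and counting error allows a log2 ratio down to 1.34. Of 49 thinned Lmo7+/+ NK-like cells 0 had a UMI, so that a share up to 6.12% is possible by 3 counts of the total (7.25% by the exact interval), and of 33 in the other library 9.09% (1.92 to 24.3) did.

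Cxcr3 RNA was scarce, and its order over subsets was another one. Memory-like cells had 125 CPM (71.7 to 204) from 16 counts against 175 CPM (107 to 270) from 20 counts, for a log2 ratio of 0.48 (-0.54 to 1.53). Regulatory T-like cells followed with 6 and 9 counts at 35.8 CPM (13.1 to 78.0) and 49.0 CPM (22.4 to 93.1), and NK-like cells had 4 and 2 counts at 23.7 and 17.6 CPM. The intervals of regulatory T-like and NK-like cells overlapped, while those of memory-like cells lay above those of CD8 T-like cells in each library.

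In CD8 T-like cells with their cycling part Cxcr3 had 9 counts in each library, at 11.1 CPM (5.06 to 21.0) and 6.97 CPM (3.19 to 13.2). The log2 ratio of -0.66 has an interval from -2.17 to 0.84, and with 18 counts in all the gene was under the minimum of 20 set for a call. After thinning 1.90% (0.519 to 4.80) of 210 and 1.23% (0.335 to 3.11) of 326 of these cells had a Cxcr3 UMI. Macrophage-like cells had 0.650 and 0.826 CPM. In no subset did the interval of the log2 ratio of Cxcr3 leave out 0 at these settings. With the strict cell filter the log2 ratio in CD8 T-like cells was -1.62 (-3.17 to -0.21), and with the mean of CPM per cell it was 0.0792, so that its size and sign depended on the processing.

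**Figure D4:**
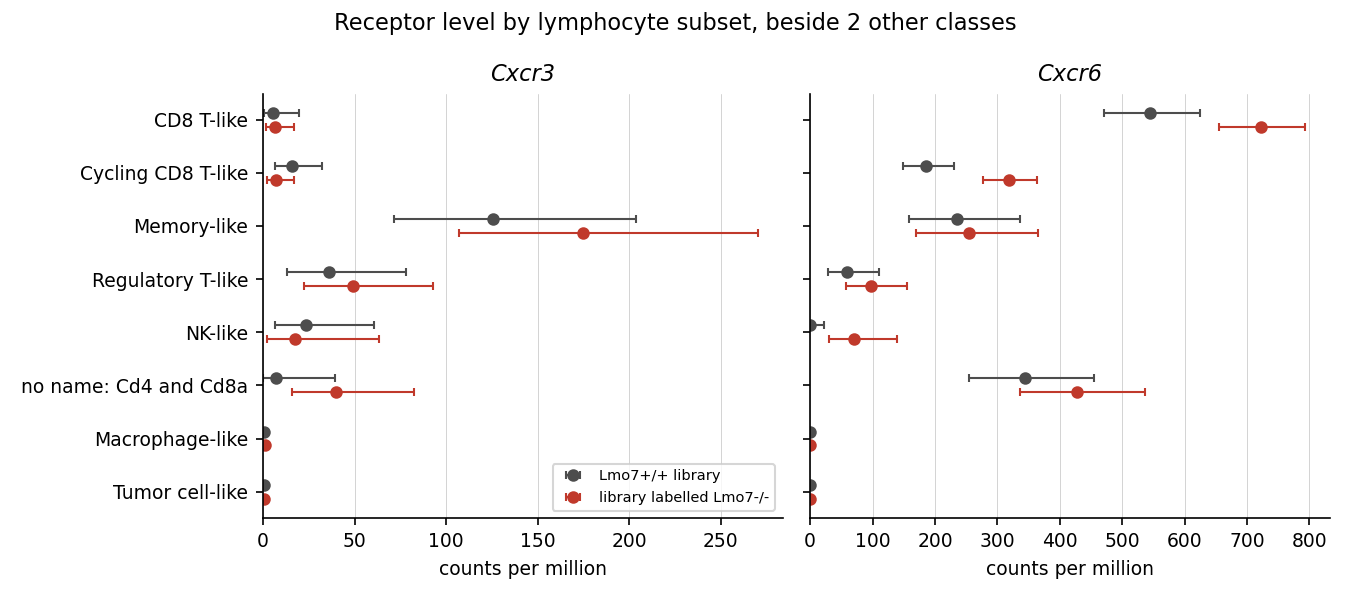
Level of Cxcr3 and Cxcr6 (CPM, linear scale, a separate axis for each gene) in lymphocyte subsets of each library and in macrophage-like and tumor cell-like cells, with exact Poisson 95% intervals as bars. Among the groups shown, Cxcr6 is highest in CD8 T-like cells outside the cycle (544 and 722 CPM) and Cxcr3 in memory-like cells (125 and 175 CPM), and the wide bars of Cxcr3 reflect its few counts.

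Cells with UMIs of both receptors were few, and the product of the separate shares lay within the exact interval of each share given here. They were 2 of 34 and 2 of 30 thinned memory-like cells, or 5.88% and 6.67%, where that product was 3.03% and 4.44%. Of the CD8 T-like cells 1 of 210 and 1 of 326 had both, or 0.476% and 0.307%, against products of 0.753% and 0.572%. Among the chemokine receptors with both libraries summed, Cxcr6 ranked first in CD8 T-like cells outside the cycle at 654 CPM. In the cycling ones Ccr7 stood at 286 CPM and Cxcr6 at 266 CPM. In memory-like cells Cxcr6 stood at 244 CPM behind Cxcr4 at 439 CPM, with Cxcr3 at 149 CPM, and in regulatory T-like cells Ccr2 (595 CPM) and Ccr7 (544 CPM) led.

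CD8 cells with and without a Cxcr6 UMI were set side by side, a CD8 cell being one with a Cd8a or Cd8b1 UMI and no Cd4 or Foxp3 UMI outside the sub-clusters with RNA of other classes. There were 142 cells with and 145 without a Cxcr6 UMI in the Lmo7+/+ library and 272 with and 181 without in the other, and those with a UMI were deeper (medians of 2893 against 2207 UMIs and 2711 against 1985). Gzmb, a cytotoxic granzyme, was 1491 CPM with and 1024 CPM without a Cxcr6 UMI in the Lmo7+/+ library, and 2769 and 1684 CPM in the other. The inhibitory receptor gene Havcr2 (TIM-3) was 102 against 52.3 CPM and 148 against 74.1 CPM. Pdcd1 was also higher with a Cxcr6 UMI, at 596 against 459 CPM and 701 against 608 CPM, with intervals that overlapped only in the library labelled Lmo7-/-. Entpd1 was 69.9 against 57.3 CPM and 87.1 against 50.2 CPM, with overlapping intervals. The other genes of T cell exhaustion did not go the same way in both libraries. Lag3 was 89.9 against 102 CPM and 114 against 107 CPM, Tigit 38.0 against 12.5 CPM and 14.3 against 23.99 CPM, and Tox 228 against 212 CPM and 193 against 214 CPM, all with overlapping intervals. The lymph node homing receptor gene Ccr7 went the other way, with 232 against 369 CPM and 161 against 360 CPM. For Gzmb, Havcr2 and Ccr7 the intervals of cells with and without a Cxcr6 UMI did not overlap in the library labelled Lmo7-/-, and in the Lmo7+/+ library they overlapped for Havcr2. Tcf7, a gene of stem-like T cells, rested on 7 to 19 counts a group, at 14.0 against 29.9 CPM and 15.4 against 41.4 CPM, with overlapping intervals.

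Genes that act around the ligands were counted in a list of 35, of which 34 were in the tables. In macrophage-like cells 3 of the 29 tested were 1.5-fold or more higher in the library labelled Lmo7-/- and 1 lower. Of all genes tested there, 3.55% were higher and 5.66% lower, and the list's median log2 ratio was 0.04. Among the higher ones were Irf1, an interferon-induced transcription factor, at 155 and 284 CPM (log2 ratio 0.87) and Socs1, a feedback inhibitor of cytokine signaling, at 32.7 and 53.8 CPM (0.72). The proteases that release CXCL16 were level, with Adam10 at 105 and 109 CPM (0.04) and Adam17 at 194 and 210 CPM (0.11). In CD8 T-like cells 1 of 29, the kinase gene Jak2, was higher and none lower (5.75% of all genes were higher and 9.88% lower there), with a median of -0.01. In tumor cell-like cells 2 of 29 were higher and 1 lower (3.87% of all genes higher and 4.90% lower), with a median of -0.10. Ifng, the gene of interferon gamma, had a log2 ratio of 0.37 in CD8 T-like cells.

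The interferon gamma response genes, a list of 22 without the chemokines, were higher together with Cxcl9. In macrophage-like cells 13 of 22 were 1.5-fold or more higher and none lower, with a median log2 ratio of 0.70, beside 3.55% of all genes higher. In tumor cell-like cells 18 of 22 were, with a median of 1.06, beside 3.87% of all genes. Among them Cd274, which encodes PD-L1, was 138 and 281 CPM (1.02) in macrophage-like cells and 13.3 and 34.2 CPM (1.36) in tumor cell-like cells. The GTPase gene Gbp2b was 55.3 and 158 CPM (1.51) in macrophage-like cells, and the GTPase gene Iigp1 118 and 340 CPM (1.53) in tumor cell-like cells. In endothelial-like cells 7 of 19 were higher and none lower, with a median of 0.47, beside 10.7% of all genes higher and 12.4% lower. CD8 T-like cells had 1 of 17 higher and 2 lower (5.75% and 9.88% of all genes), with a median of -0.00038.

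The type I interferon response genes did not share this pattern. Of 18 tested in macrophage-like cells none was 1.5-fold or more higher and 1 was lower (3.55% and 5.66% of all genes), with a median log2 ratio of -0.16. In tumor cell-like cells none of 18 was past 1.5-fold in either direction (3.87% of all genes higher and 4.90% lower), with a median of 0.13. These counts are near the shares over all genes. Cxcl10 in macrophage-like cells, at 0.25, lay between the medians of both lists, and in tumor cell-like cells, at 1.24, it was above the interferon gamma median of 1.06.

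**Figure D5:**
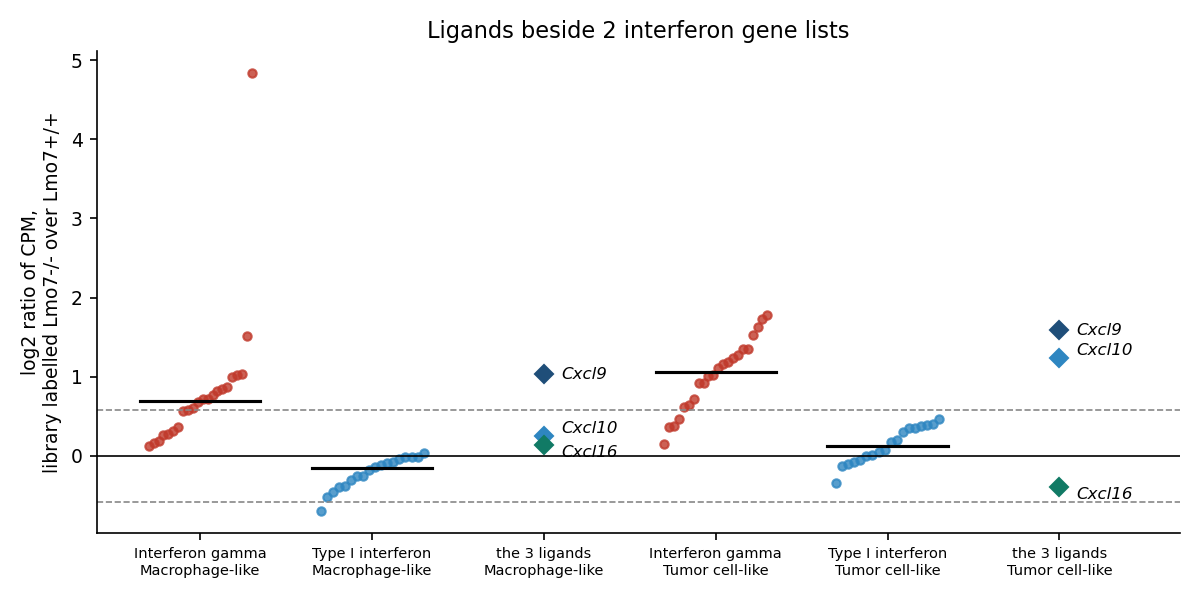
Log2 ratio between the library labelled Lmo7-/- and the Lmo7+/+ library of each gene of an interferon gamma list and a type I interferon list in macrophage-like and tumor cell-like cells, beside the 3 ligands (diamonds), with black bars at the list medians and dashed lines at 1.5-fold. The interferon gamma genes center on 0.70 and 1.06 and the type I genes on -0.16 and 0.13. The point near 5 is Ido1, which had 1 and 29 counts in macrophage-like cells.

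Other chemokines were counted in the same way. In macrophage-like cells 4 of 22 other ligands were 1.5-fold or more higher and 1 lower, with a median log2 ratio of -0.16, beside 3.55% of all genes higher and 5.66% lower. The higher ones were the T cell attractant Ccl5 at 131 and 452 CPM (1.78), the eotaxin Ccl24 at 13.5 and 49.3 CPM (1.87), Ccl8 at 147 and 340 CPM (1.21) and the neutrophil attractant Cxcl1 at 125 and 273 CPM (1.12). With both libraries summed, Cxcl9 was the leading chemokine of macrophage-like cells at 1139 CPM, with Cxcl16 at 763, Cxcl10 at 600.1 and Cxcl2 at 589.6 CPM behind it. In the Lmo7+/+ library alone the intervals of Cxcl9 and Cxcl16 overlapped (746.6 and 726 CPM), so that their order is open there. It also led in endothelial-like cells at 2926 CPM, while Cxcl1 led in fibroblast-like (2555 CPM) and tumor cell-like cells (429 CPM, with Cxcl10 next at 396 CPM). Among the other receptors tested, 1 of 12 was higher and 1 lower in macrophage-like cells and 1 of 6 was higher and 1 lower in CD8 T-like cells (5.75% of all genes higher and 9.88% lower there), the higher ones being Xcr1 (17.8 and 59.9 CPM, 1.75), a marker of cross-presenting dendritic cells, whose class markers summed to 336 and 402 CPM in the macrophage-like cells with 5 and 6 of 14 at 5 CPM or more, and Cx3cr1 (87 and 136 CPM, 0.64), found on effector T cells. Xcr1 was among the 10 leading genes of myeloid state 3 (Ighg2b, Igkc, Fcrl5), which was 3.57% and 7.94% of its cells, or 154 and 379 cells. Endothelial-like cells differed in the decoy receptors, with Ackr1 at 437 and 148 CPM (-1.57) and Ackr2 at 20.3 and 77.4 CPM (1.93).

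The genes most like each ligand were taken by Pearson's r of log2(CPM + 1) over 16 points, the classes of both libraries, which share libraries and cells. For Cxcl9 these were Zfp36 (0.94), Man1c1 (0.94), Stx2 (0.92), App (0.92) and Socs3 (0.92), and for Cxcl10 Lamp2 (0.98), App (0.97), Myof (0.96), Tns3 (0.95) and Plxnb2 (0.95). For Cxcl16 they were Pld4 (0.98), Ly86, Tep1, Ms4a6c and Csf1r (0.97), the last of which encodes the receptor for the macrophage growth factor CSF-1. Over 12 points, the lymphocyte subsets of both libraries, the genes most like Cxcr6 were Cd8b1 (0.93), Adam19 (0.91), Mkrn1, Trbc2 and Clptm1, and those most like Cxcr3 were Lgals9 (0.90), Gna13, Ifi203, Arl4c and Gpr132. Between the members, r of Cxcl9 with Cxcl10 was 0.90 over the classes and 0.45 over the lymphocyte subsets, and r of Cxcr3 with Cxcr6 was 0.78 over the classes and -0.17 over the lymphocyte subsets.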

How the data were processed

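The authors deposited raw UMI counts per gene and droplet for each of the 2 libraries, with droplets already called as cells. The labels name Cell Ranger 2.1.1 and mm10, and the matrix header names software version 3.0.0. The end of the transcript read by the kit and the annotation are not given in the sources used here. The filter on cells asked for 500 genes and 1000 UMIs or more and for 15% or less mitochondrial UMIs, and doublets stayed in (Scrublet marked 2.90% and 2.60%). Counts were log-normalized to 10000, reduced to 2000 variable genes without the 5 members and to 30 principal components, and clustered by Louvain at resolution 0.5 on 20 neighbors. Clusters took a name only with at least 3 detected markers, tumor cells also by an expression profile over chromosomes of at least 0.8 of the clearest tumor cluster, and 2819 cells without a clear class and 260 mixed cells were set aside. Counts were summed per class and library and divided by the class total (CPM), and a gene with at least 20 counts over both libraries counted as past a threshold at 1.5-fold. A count of 0 was bounded at 3 counts. The share of positive cells was compared at a depth of 1500 UMIs per cell, to which deeper cells were thinned and without those below it.

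The members, markers and gene lists were chosen with earlier results of these data known. Genes named were the members, those on the fixed lists, the 5 most alike by Pearson's r among genes with at least 200 counts, and the leading genes of clusters. Cxcl11, Mx1 and Mx2 were not analysed here, and the values of some listed genes are not reported here. Other filters, doublet removal, clustering settings, scalings (TMM) and thinning were tried as alternatives, and the steps were tested on simulated data. Scripts ran in R 4.3.3 (edgeR 4.0.16) and Python 3.11.15 (scanpy 1.11.5, igraph 0.11.9, scikit-learn 1.9.0, scipy 1.17.1, numpy 2.4.6).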

Additional observations from a re-analysis of the deposited data

Results flagged for a closer look

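Some groups of cells outside the comparisons carried members above the level in the T-like class as a whole, taken with both libraries together. Lymphocyte sub-cluster 6 (77 cells, led by Aqp1, Nrep and Col5a3, with tumor cell RNA) had Cxcl10 at 211.858 CPM from 92 counts. In lymphocyte sub-cluster 8 (34 cells, led by Cd180, Ocstamp and Pgf, with dendritic cell RNA) Cxcl10 was 174.158 CPM from 21 counts. Lymphocyte sub-cluster 9 (13 cells, led by Cd163l1, Il17a and Blk, genes of gamma delta T cells that make IL-17) had Cxcl10 at 2037.799 CPM from 51 counts, all in the Lmo7+/+ library. Cluster 11 (214 cells), which took no name because markers of more than 1 class were high, was led by Cxcr6, Cd8a and Nkg7 and had Cxcl9 at 956.228 CPM from 1453 counts and Cxcr6 at 169.133 CPM from 257 counts. Which of these values reflect droplets with more than 1 cell was not tested.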

How the results depend on the processing

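No paired analysis was possible because each genotype has 1 library and no replicate numbers. Intervals cover counting error only, so a difference between mice is not in them. The log2 ratio of Cxcl9 in macrophage-like cells, 1.03 as reported, stayed past 1.5-fold under all 16 alternatives, from 0.95 to 1.13: 0.95 with the strict cell filter, 0.98 at resolution 1.0 and with 20 principal components, 1.00 without doublets and with the members kept among the clustering genes, and 1.13 with TMM scaling and when centered on the median of all genes. That of Cxcl10, 0.25, lay between 0.16 and 0.49 and under 1.5-fold in all 16: 0.16 with the strict filter and at resolution 1.0, 0.18 with 20 components, 0.19 without doublets and with the members kept, 0.34 with TMM and when centered, and 0.49 with equal weight to each state. That of Cxcl16, 0.14, was 0.23 with TMM, 0.24 when centered and 0.018 with equal weight. Cxcr6 in CD8 T-like cells, 0.54, lay between 0.42 and 0.61 and past 1.5-fold in 2 of 16. Cxcr3 in CD8 T-like cells, -0.66, reversed to 0.0792 with the mean of CPM per cell, was -1.62 (-3.17 to -0.21) with the strict filter and was past 1.5-fold in 9 of 16, and Cxcr6 in regulatory T-like cells, 0.72, reversed to -2.84 with the strict filter and -0.42 after thinning; the cause was not tested, and both rest on few counts. The sign of the Cxcl10 ratio held in 11 of 13 alternatives in endothelial-like cells and in 10 of 14 in dendritic-like cells, and Cxcl9 stayed past 1.5-fold in every alternative run in the fibroblast-like, M-MDSC-like, dendritic-like, endothelial-like and tumor cell-like classes. Of 327 other ratios 289 stayed within their interval, 36 moved outside it and 2 reversed, and of 778 levels 602 and 176. A change of sign counted as a reversal only where the reported ratio was past 1.5-fold. Smaller ratios also changed sign. For Cxcr3 the sign held in 11 of 14 alternatives in regulatory T-like cells, 9 of 10 in NK-like cells and 12 of 13 in CD8 T-like cells outside the cycle. For Cxcr6 in memory-like cells it held in 10 of 13. Centering, equal weights, leaving out shared barcodes, the Gzmg sub-cluster or T-like sub-clusters 6, 8 and 9, and joining macrophage-like and M-MDSC-like cells were chosen after seeing the data. With at least 100 counts, fewer genes were past 1.5-fold: 1.96% higher and 2.77% lower in macrophage-like cells, 1.96% and 2.66% in CD8 T-like cells, and 1.76% and 2.04% in tumor cell-like cells, 1.87% and 3.07% in dendritic-like, 4.82% and 5.54% in endothelial-like, 7.59% and 5.63% in fibroblast-like and 2.18% and 3.13% in M-MDSC-like cells.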
